A study of Mus musculus with 12 samples.

Results

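The 10 genes described here, Eln, Fbn1, Mfap2, Mfap4, Mfap5, Emilin1, Fbln1, Fbln2, Fbln5 and Mgp, code for elastin, for fibrillin microfibrils and for proteins found on or beside them. They were chosen by name out of 18604 genes in the deposited tables, with earlier results of these data known. All 10 had values in all 4 tables and every one passed the filter on low values in every comparison. The hearts came from male C57Bl/6J mice aged 12 weeks that ate either a control diet, with branched-chain amino acids (BCAA) at the level of ordinary chow, or a BCAA-free diet that lacked leucine, isoleucine and valine. Each diet began 4 days before surgery and went on until the heart was taken 1 week after it. Surgery was sham or transverse aortic constriction (TAC), a narrowing of the aortic arch that loads the left ventricle with pressure. Crossing diet and surgery gave 4 groups, called control diet sham and TAC and BCAA-free sham and TAC here. Each had 3 libraries, and no genotype, drug or transgene is listed for any of them. The labels do not state whether the libraries of a group came from different animals, so the p-values reflect the spread among libraries, part of which may be technical.

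Elastic fibres give arteries, valves and the cardiac interstitium their recoil. They form when tropoelastin, the soluble elastin monomer, is deposited on a scaffold of fibrillin microfibrils, guided by fibulins and crosslinked by lysyl oxidases. Microfibrils also bind latent TGF-beta and BMPs, and in the heart most of these proteins are made by fibroblasts, vascular smooth muscle cells and valve cells.

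Libraries held 74206246 to 110452636 reads, and the 10 genes together took 362 to 1642 CPM, reads scaled to a common library total. The labelled tissue was matched by the 7 cardiomyocyte markers measured, which summed to 50913 to 66282 CPM. The share of mitochondrial reads was 17.9 to 19.9% in control diet TAC libraries and 21.8 to 27.1% in all others. The structured RNAs Rn7sk, Rmrp and Rpph1 summed to 115.5 CPM in control diet sham 2, 63.6 and 76.1 in TAC 1 and 3 of the BCAA-free diet, 19.3 in control diet TAC 3 and no more than 7.79 in the other 8. The labels name no batch.

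Promoter sequence in RefSeq (GRCm38.p6), 250 bases before to 50 after the start, was matched for 6 of the 10 genes: Fbn1, Mfap2, Emilin1, Fbln1, Fbln2 and Fbln5. Those of 3 genes are shown, because for these all or most of the 250 bases before the start lay outside the annotated gene. They are Mfap2 and Fbln5, which rose with TAC on the control diet, and Fbln1, which was called in no comparison. Each is read 5′ to 3′ on the strand of its gene and ends before the annotated gene, Mfap2 at chr4:141010174-141010417 (plus strand, 244 bases), Fbln1 at chr15:85205699-85205948 (plus strand, 250 bases) and Fbln5 at chr12:101819120-101819369 (minus strand, 250 bases). Capitals mark the motifs found.
Mfap2: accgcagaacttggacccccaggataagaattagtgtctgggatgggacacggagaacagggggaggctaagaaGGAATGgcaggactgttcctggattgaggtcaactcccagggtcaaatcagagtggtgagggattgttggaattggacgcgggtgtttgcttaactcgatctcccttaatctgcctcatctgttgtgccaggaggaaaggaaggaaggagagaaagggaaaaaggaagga
Fbln5: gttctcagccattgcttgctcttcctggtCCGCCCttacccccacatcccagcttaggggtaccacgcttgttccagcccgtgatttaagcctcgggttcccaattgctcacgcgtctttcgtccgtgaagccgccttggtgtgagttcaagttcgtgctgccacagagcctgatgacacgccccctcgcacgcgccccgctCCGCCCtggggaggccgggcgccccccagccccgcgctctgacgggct
Fbln1: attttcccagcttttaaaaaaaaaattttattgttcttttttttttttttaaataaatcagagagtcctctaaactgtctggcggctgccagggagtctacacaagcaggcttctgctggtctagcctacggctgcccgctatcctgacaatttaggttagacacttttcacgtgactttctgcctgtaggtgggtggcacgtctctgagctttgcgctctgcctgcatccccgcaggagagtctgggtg
The search covered 5 motifs on both strands. The capitals in Mfap2 are the reverse complement of the TEAD motif CATTCC, which 14.7% of the 32851 mouse promoter windows of the same length held. In Fbln5 the 2 capital runs are the reverse complement of the GC box GGGCGG, held by 35.7% of windows. Fbn1 held 1 GC box and Fbln2 held 2. The TATA box TATAAA (13.6% of windows), the AP-1 motif TGACTCA (1709 windows) and the CArG box (1.63%) were in none of the 6 windows, and Fbln1 and Emilin1 held none of the 5 motifs. GC content was 65.7% for Fbln5, 52.0% for Mfap2 and 51.7% for Fbln1, beside a median of 52.7% over all windows. The Fbln5 window held 21 CpG dinucleotides in the 250 bases before the start and that of Fbln1 held 7. A match is a string of letters and was not tested as a binding site.

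With TAC on the control diet 9 of the 10 genes were higher than in sham hearts, beside 9.17% of all genes. Among TAC hearts 9 were lower on the BCAA-free than on the control diet, beside 10.5% of all genes. These counts are by limma at an adjusted p below 0.05. The largest rises with TAC were those of the microfibril-associated genes Mfap4 and Mfap5, with a ratio of group means of 5.65 for Mfap4. On the BCAA-free diet 6 of the 10 rose, beside 3.31% of all genes. Mfap4 and Mfap5 again moved most, by 2.60-fold and 2.19-fold. Fbln1 was called in none of the comparisons: its largest group mean was 5526 and its smallest 4899 normalized reads.

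**Figure D1:**
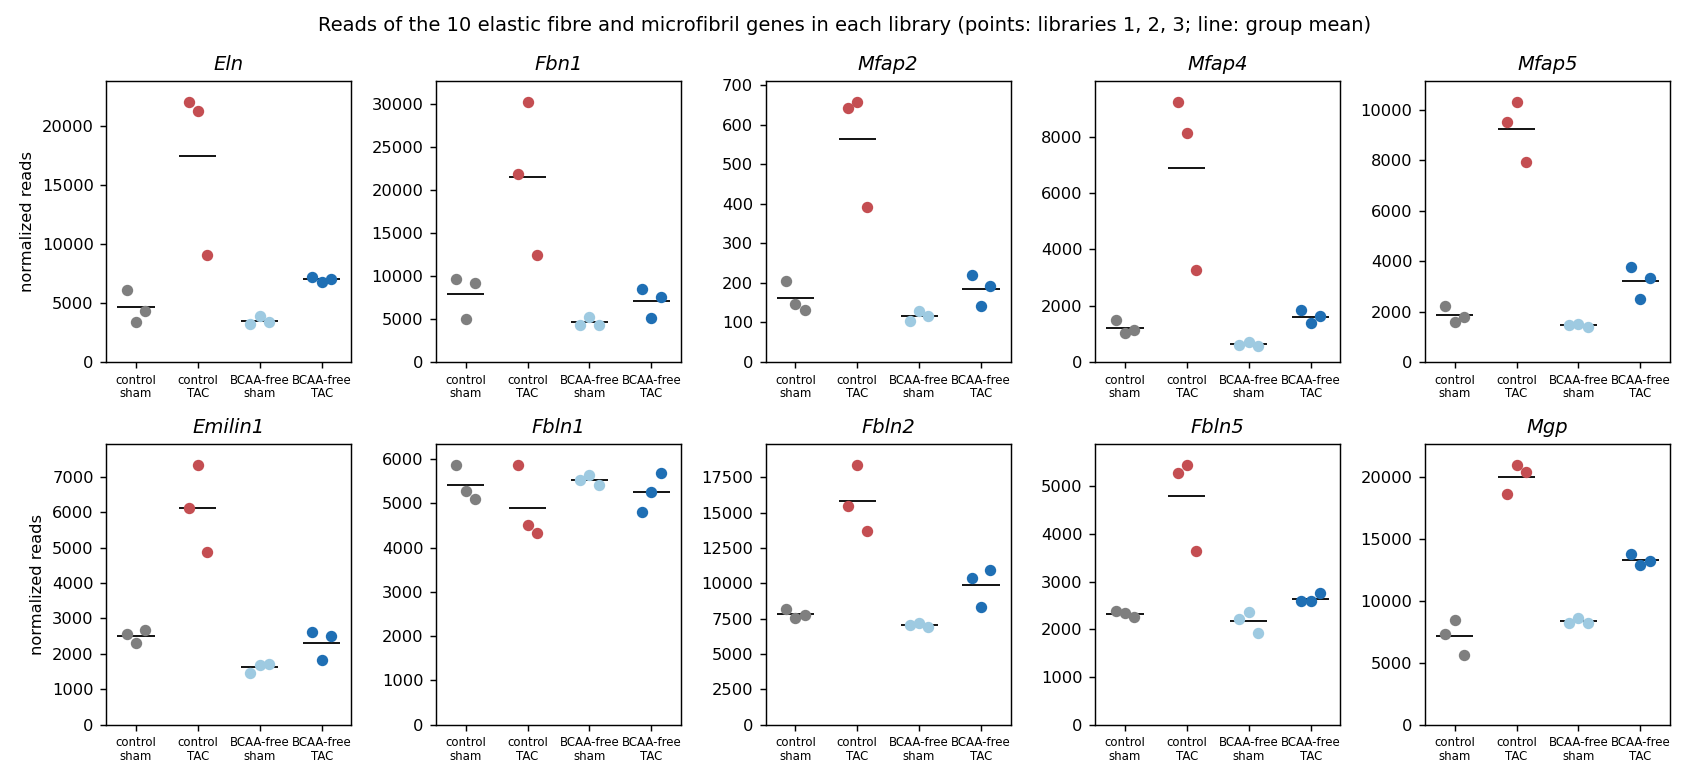
Normalized reads (vertical axis, linear, from 0) of each gene in each of the 12 libraries, with 1 panel per gene; points stand for libraries 1, 2 and 3 of a group from left to right and the line for the group mean. In 9 panels every control diet TAC point lies above every control diet sham point, beside 18.5% of all genes. The Fbln1 groups overlap, at 4328 to 5881.

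Normalized reads below are reads divided by size factors set jointly over the 12 libraries, so that values compare between groups. Log2 changes, with their standard errors (SE), come from limma on log2(value + 1) of the authors' values with each pair of groups fitted alone, and can differ slightly from ratios of the printed reads. Adjusted p-values are limma's with Benjamini-Hochberg adjustment over all genes tested. The 2 TAC comparisons share no library, while each diet comparison shares its libraries with them.

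Eln codes for elastin, the crosslinked core of the fibre (ENSMUSG00000029675, GRCm38 chromosome 5, 134702593 to 134747323, minus strand, protein coding). It had 6106, 3396 and 4347 normalized reads in control diet sham 1, 2 and 3 and 22040, 21295 and 9087 in control diet TAC. BCAA-free sham hearts had 3201, 3886 and 3407 and BCAA-free TAC hearts 7201, 6751 and 7060. Control diet TAC 3 stood well below the other 2 of its group but above every library of the other groups. The log2 change with TAC was 1.85 ± 0.35 on the control diet (limma, adjusted p = 0.0121) and 1.00 ± 0.07 on the BCAA-free diet (adjusted p = 5.19e-05). The latter was the smallest p of the 17611 genes tested there. The BCAA-free TAC libraries differed little among themselves, with a coefficient of variation of 3.29%, beside 41.6% in control diet TAC. With all 12 libraries in 1 fit, sharing 1 estimate of the spread, the same change had an adjusted p of 0.15. Without control diet TAC 2 the change on the control diet did not pass (1.65, adjusted p = 0.0648).

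Among TAC hearts Eln was lower on the BCAA-free diet, by a log2 difference of -1.21 ± 0.29 (limma, adjusted p = 0.0242). That call was lost without control diet TAC 1 or 2 or without any 1 of the 3 BCAA-free TAC libraries, with adjusted p between 0.062 and 0.0924. In sham hearts the groups overlapped and the log2 difference was -0.37 (adjusted p = 0.441).

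Fbn1 codes for fibrillin-1, the main rod of the microfibril (ENSMUSG00000027204, chromosome 2, 125300594 to 125507993, minus strand, protein coding). Control diet sham libraries had 9640, 4964 and 9199 normalized reads and control diet TAC libraries 21851, 30201 and 12421. On the BCAA-free diet, sham libraries had 4329, 5227 and 4228 and TAC libraries 8507, 5077 and 7526. Control diet sham 2 was about as low as the BCAA-free sham libraries, and BCAA-free TAC 2 lay inside the BCAA-free sham range. Fbn1 rose by 1.40 ± 0.35 with TAC on the control diet (limma, adjusted p = 0.0334). This did not pass without control diet sham 2 (1.09, adjusted p = 0.0724) or 3 (0.0514) or control diet TAC 1 (0.0966) or 2 (0.0909). On the BCAA-free diet the change was 0.58 ± 0.22 (adjusted p = 0.206), and without BCAA-free TAC 2 it was 0.80 and passed (adjusted p = 0.000871).

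In TAC hearts Fbn1 was lower on the BCAA-free diet (-1.55 ± 0.30, limma, adjusted p = 0.0104). In sham hearts the difference was -0.74 ± 0.30 (adjusted p = 0.268), and without control diet sham 2 it was -1.04 and passed (adjusted p = 0.000443). Gm9913, which overlaps Fbn1 on the other strand, had 3 to 28 reads per library, at most 0.387% of those of Fbn1.

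Mfap2 codes for MAGP-1, a small protein bound along fibrillin microfibrils (ENSMUSG00000060572, chromosome 4, 141010418 to 141015984, plus strand, protein coding). Its normalized reads were 204, 147 and 131 in control diet sham, 643, 658 and 392 in control diet TAC, 104, 129 and 116 in BCAA-free sham and 219, 142 and 193 in BCAA-free TAC libraries. Every control diet TAC library stood above all others, and BCAA-free TAC overlapped control diet sham. Mfap2 rose by 1.78 ± 0.24 with TAC on the control diet (limma, adjusted p = 0.00241). The change on the BCAA-free diet was 0.64 ± 0.19 (adjusted p = 0.0568), and without BCAA-free TAC 2 it was 0.82 and passed (adjusted p = 0.0203). It was lower on the BCAA-free diet in TAC hearts (-1.58 ± 0.23, adjusted p = 0.0023), and in sham hearts the difference was -0.45 (adjusted p = 0.233).

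Mfap4 codes for a secreted fibrinogen-domain protein that binds elastin and fibrillin (ENSMUSG00000042436, chromosome 11, 61485431 to 61488900, plus strand, protein coding). Control diet sham libraries had 1507, 1016 and 1137 normalized reads and control diet TAC libraries 9249, 8157 and 3268. BCAA-free sham libraries had 587, 702 and 566 and BCAA-free TAC libraries 1831, 1373 and 1617. The BCAA-free sham libraries were below all others, and control diet TAC 3 was nearer to the BCAA-free TAC libraries than to its own group. Mfap4 rose by 2.37 ± 0.37 with TAC on the control diet (limma, adjusted p = 0.00682) and by 1.37 ± 0.11 on the BCAA-free diet (adjusted p = 0.000115). It was lower on the BCAA-free diet both in sham hearts (-0.97 ± 0.14, adjusted p = 0.0119) and in TAC hearts (-1.97 ± 0.34, adjusted p = 0.0058). The sham difference did not pass without BCAA-free sham 1 (-0.93, adjusted p = 0.0809) or 3 (-0.91, adjusted p = 0.0593), nor did the rise on the BCAA-free diet in the fit of all 12 libraries (adjusted p = 0.069).

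The exons of Mfap4 overlap those of Mapk7, which codes for the kinase ERK5, on the other strand. The strand setting of the counting is not given in the sources used here, so reads of the pair may not be fully separated. Mapk7 had 308 to 1105 reads per library, up to 70.3% of the number for Mfap4. Its log2 changes were 0.61 and 0.16 with TAC on the control and BCAA-free diets and -0.26 and -0.71 with the BCAA-free diet in sham and TAC hearts, smaller than those of Mfap4 in all 4.

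Mfap5 codes for MAGP-2, a microfibril protein that also binds TGF-beta family ligands (ENSMUSG00000030116, chromosome 6, 122505845 to 122529290, plus strand, protein coding). It had 2210, 1583 and 1769 normalized reads in control diet sham and 9530, 10330 and 7932 in control diet TAC libraries. The BCAA-free libraries had 1465, 1509 and 1401 in sham and 3769, 2498 and 3319 in TAC hearts. No 2 of the 4 groups overlapped, in the order BCAA-free sham, control diet sham, BCAA-free TAC, control diet TAC. The rise with TAC was 2.32 ± 0.15 on the control diet (limma, adjusted p = 8.58e-05) and 1.11 ± 0.13 on the BCAA-free diet (adjusted p = 0.00286). The diets differed by -1.54 ± 0.16 in TAC hearts, lower on the BCAA-free diet (adjusted p = 0.000496). The sham difference of -0.34 ± 0.11 did not pass (adjusted p = 0.12) but did without control diet sham 2 (-0.44, adjusted p = 0.0292).

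Emilin1 codes for a glycoprotein at the interface of the elastin core and the microfibrils that also restrains processing of pro-TGF-beta (ENSMUSG00000029163, chromosome 5, 30913402 to 30921277, plus strand, protein coding). Normalized reads were 2558, 2303 and 2676 in control diet sham, 6126, 7346 and 4864 in control diet TAC, 1452, 1691 and 1707 in BCAA-free sham and 2613, 1811 and 2510 in BCAA-free TAC libraries. The BCAA-free TAC group, its mean below that of control diet sham, overlapped it, and BCAA-free sham lay below every other library. Emilin1 rose by 1.26 ± 0.15 with TAC on the control diet (limma, adjusted p = 0.00117). On the BCAA-free diet the change was 0.50 ± 0.14 (adjusted p = 0.0707), and without BCAA-free TAC 2 it was 0.66 and passed (adjusted p = 0.000829). With the BCAA-free diet Emilin1 was lower by -0.64 ± 0.08 in sham (adjusted p = 0.00633) and by -1.40 ± 0.17 in TAC hearts (adjusted p = 0.00107). The sham difference had an adjusted p of 0.0662 in the fit of all 12 libraries.

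The fibulins are calcium-binding EGF-repeat glycoproteins of basement membranes and elastic fibres. Fbln5, whose product carries tropoelastin to the microfibril and binds lysyl oxidase-like 1 (ENSMUSG00000021186, chromosome 12, 101746565 to 101819055, minus strand, protein coding), had 2377, 2343 and 2248 normalized reads in control diet sham and 5282, 5456 and 3633 in control diet TAC libraries. BCAA-free sham libraries had 2223, 2360 and 1915 and BCAA-free TAC libraries 2587, 2583 and 2754. Only control diet TAC was far from the rest. Fbln5 rose by 1.01 ± 0.15 with TAC on the control diet (limma, adjusted p = 0.00326) and by 0.29 ± 0.08 on the BCAA-free diet (adjusted p = 0.0436), the smallest rise called. The latter passed in 1 of the 6 fits that left out a library, without BCAA-free sham 2. Without BCAA-free sham 1 or 3 or BCAA-free TAC 1, 2 or 3 its adjusted p was 0.0598 to 0.155. In TAC hearts Fbln5 was lower on the BCAA-free diet (-0.83 ± 0.15, adjusted p = 0.00522).

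Fbln2, whose product binds fibrillin, elastin and basement membrane proteins (ENSMUSG00000064080, chromosome 6, 91212455 to 91272540, plus strand, protein coding), had 8178, 7556 and 7752 normalized reads in control diet sham and 15449, 18392 and 13697 in control diet TAC libraries. BCAA-free sham libraries had 7057, 7214 and 6874 and BCAA-free TAC libraries 10354, 8285 and 10930. As with Mfap5, no 2 groups overlapped. It rose by 1.00 ± 0.12 with TAC on the control diet (limma, adjusted p = 0.0014) and by 0.47 ± 0.09 on the BCAA-free diet (adjusted p = 0.0126). The second rise did not pass without BCAA-free sham 3 (adjusted p = 0.0592) or BCAA-free TAC 1 (0.0536), nor in the fit of all 12 libraries (0.051). Fbln2 was lower on the BCAA-free diet in TAC hearts (-0.68 ± 0.14, adjusted p = 0.011), a call that was lost without BCAA-free TAC 2 (-0.56, adjusted p = 0.0634).

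Fbln1 codes for a fibulin of basement membranes and elastin cores that also circulates in plasma (ENSMUSG00000006369, chromosome 15, 85205949 to 85286535, plus strand, protein coding). Its normalized reads were 5881, 5286 and 5103 in control diet sham, 5861, 4508 and 4328 in control diet TAC, 5531, 5638 and 5409 in BCAA-free sham and 4814, 5265 and 5690 in BCAA-free TAC libraries. All neighbouring groups overlapped. The log2 changes were -0.17 ± 0.13 with TAC on the control diet (limma, adjusted p = 0.435), -0.08 ± 0.06 with TAC on the BCAA-free diet (0.508), 0.03 ± 0.06 with diet in sham hearts (0.857) and 0.12 ± 0.13 with diet in TAC hearts (0.579). The sham value changed sign without control diet sham 3 (-0.02).

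Mgp codes for matrix Gla protein, a vitamin K-dependent inhibitor of calcification in arteries and cartilage (ENSMUSG00000030218, chromosome 6, 136872435 to 136875823, minus strand, protein coding). It had 7280, 8484 and 5645 normalized reads in control diet sham and 18597, 21007 and 20418 in control diet TAC libraries. BCAA-free sham libraries had 8176, 8596 and 8234 and BCAA-free TAC libraries 13812, 12895 and 13223. The sham groups overlapped, and both TAC groups stood above them and apart from each other. Mgp rose by 1.50 ± 0.15 with TAC on the control diet (limma, adjusted p = 0.000634) and by 0.67 ± 0.05 on the BCAA-free diet (adjusted p = 0.000103, at rank 3 by p in that comparison). In TAC hearts it was lower on the BCAA-free diet (-0.58 ± 0.10, adjusted p = 0.00442). Of the 9 genes that differed there, Mgp was the 1 whose sham difference had the other sign, 0.24 ± 0.13 (adjusted p = 0.379).

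**Figure D2:**
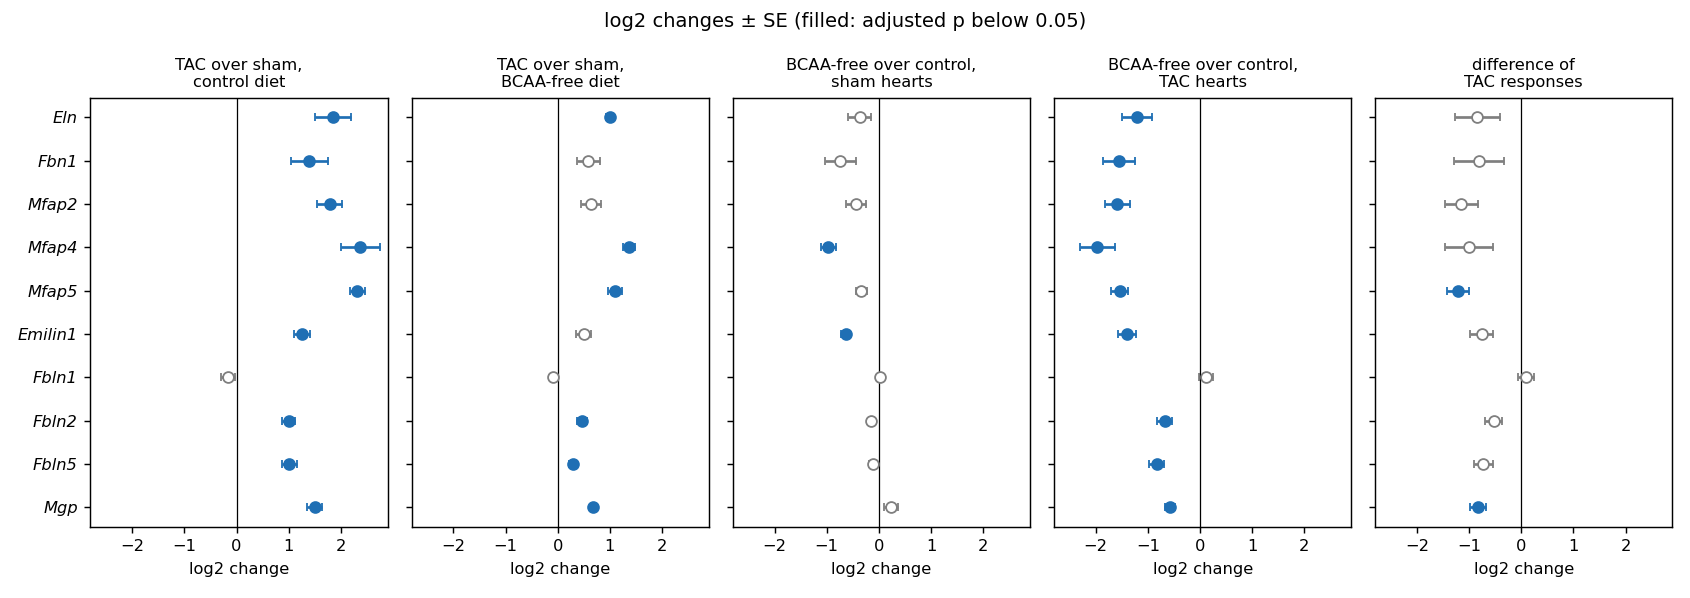
Log2 change (horizontal axis) of each gene in the 4 pairwise comparisons and in the difference of the TAC responses, with bars of 1 SE either way; filled points had a limma adjusted p below 0.05. The first panel holds 9 filled points, the others 6, 2, 9 and 2, and the Fbln1 points stay between -0.17 and 0.12.

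Read against all genes, the 9 of 10 called higher with TAC on the control diet stood beside 9.17% of 18305 genes called higher there. The members' median log2 change was 1.45 and that of all genes -0.02. In the same 9 genes the groups did not overlap, beside 18.5% of all genes with every TAC library above every sham library. The authors' deposited table had an adjusted p below 0.05 for 9 members. The share of all genes with such a value there was not counted. Leaving out control diet sham 2 and control diet TAC 3 together, a choice made after seeing the data, 9 members were called.

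With TAC on the BCAA-free diet 6 of 10 were called higher, beside 3.31% of 17611 genes, with a median of 0.61 among members and 0.01 among all genes. The groups did not overlap in 8 members, beside 13.4% of all genes. In the fit of all 12 libraries 2 members were called, Mfap5 and Mgp. The authors' deposited table had an adjusted p below 0.05 for 8, with Mfap2 (0.0234) and Emilin1 (0.000689) among them and Fbn1 at 0.0602. Their share over all genes was again not counted.

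Diet alone had less of a mark. In sham hearts 2 of 10, Mfap4 and Emilin1, were called lower on the BCAA-free diet, beside 2.27% of 17862 genes. In 5 members, Mfap2, Mfap4, Mfap5, Emilin1 and Fbln2, every BCAA-free sham library lay below every control diet sham library, beside 12.9% of all genes. The median was -0.35 among members and 0.00 among all genes. In the fit of all 12 libraries none of the 10 was called, while without control diet sham 2 there were 4. In the limma fit of the 6 libraries, 5 members had an unadjusted p below 0.05. The largest of these, 0.0432 for Mfap2, was at rank 3318 of the 17862 genes, so such values were common there.

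In TAC hearts 9 of 10 were called lower on the BCAA-free diet, beside 10.5% of 18039 genes, and in the same 9 the groups did not overlap, beside 19.2% of all genes. Members had a median of -1.30 and all genes 0.02. This comparison uses the same control diet TAC libraries as the comparison of TAC with sham, so both contain the spread of control diet TAC 3.

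Whether the response to TAC itself differed between the diets was tested as a difference of differences over the 12 libraries. For 2 of 10 genes it passed, both lower, beside 0.503% of 17493 genes called lower. The rise was smaller on the BCAA-free diet for Mfap5, by -1.21 ± 0.21 on the log2 scale (limma, adjusted p = 0.0242), and for Mgp, by -0.83 ± 0.16 (adjusted p = 0.0366). The others with a rise on the control diet had differences from -0.53 (Fbln2, adjusted p = 0.125) to -1.14 (Mfap2, adjusted p = 0.107), and Eln had -0.85 ± 0.43 (adjusted p = 0.406). Fbln1 had 0.09 (adjusted p = 0.855). For the 9 genes that rose on the control diet, the log2 change on the BCAA-free diet was 28.2% (Fbln5) to 57.6% (Mfap4) of it, with Eln at 54.2%, Mfap5 at 47.7% and Mgp at 44.7%.

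These counts moved with single libraries. Without control diet TAC 3, 8 of the 10 passed, among them Eln (-1.26, limma adjusted p = 0.0206), Mfap4 (-1.47, adjusted p = 0.00388) and Fbln5 (-0.91, adjusted p = 0.000743). Calls over all genes also went up in that fit, to 1755 from 118 with all libraries. Conversely, the Mfap5 call was kept in 5 of the 12 fits that left out 1 library and the Mgp call in 4. Mfap5 did not pass without control diet sham 2 or 3, control diet TAC 2, BCAA-free sham 1 or 2 or BCAA-free TAC 2 or 3 (adjusted p = 0.0517 to 0.0882). Mgp did not pass without any of the 3 BCAA-free sham libraries, control diet sham 1 or 3, control diet TAC 2 or BCAA-free TAC 2 or 3 (adjusted p = 0.0526 to 0.126). In the fits that lost either call, 16 to 69 of all genes were called. The log2 difference was -1.05 to -1.25 where Mfap5 lost its call and -0.67 to -0.85 where Mgp did.

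**Figure D3:**
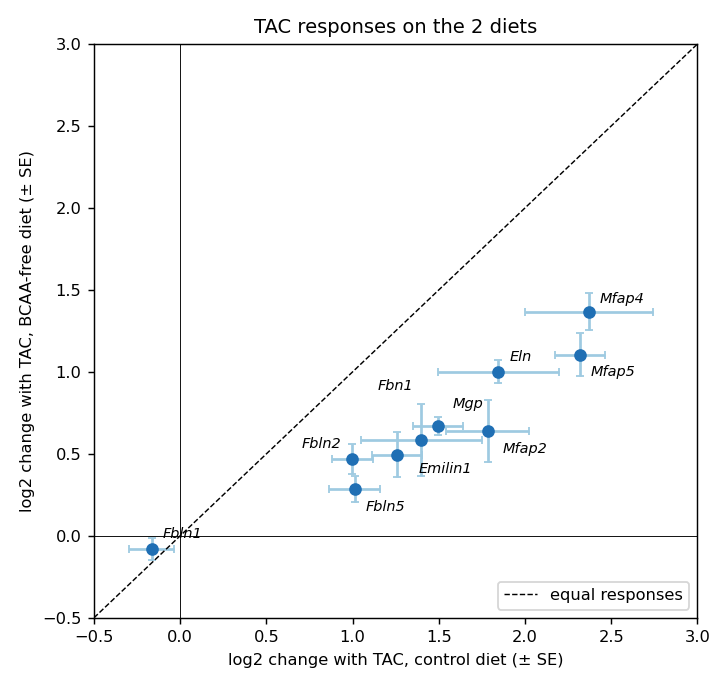
Log2 change with TAC on the control diet (horizontal axis) against that on the BCAA-free diet (vertical axis) for the 10 genes, with bars of 1 SE; the dashed line marks equal responses. In all, 9 points lie to the right of the line, from Fbln5 at 1.01 and 0.29 to Mfap4 at 2.37 and 1.37, and Fbln1 lies near the origin at -0.17 and -0.08.

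The libraries of a group did not spread evenly. Control diet TAC 3 was the lowest of its group for 9 of the 10 genes, all but Mgp. It had 37.6% of the mean of the other 2 libraries for Mfap4, 41.9% for Eln and 47.7% for Fbn1, and 60.2% for Mfap2. For Mfap5, Fbln2 and Fbln1 it had 79.9 to 83.5%, and for Mgp 103%. BCAA-free TAC 2 was likewise the lowest of its group for 9 genes, from 63.3% for Fbn1 to 96.7% for Fbln5. Control diet sham 2 was lowest for 6, with 52.7% for Fbn1 and 65.0% for Eln, while Mgp was at 131% there.

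**Figure D4:**
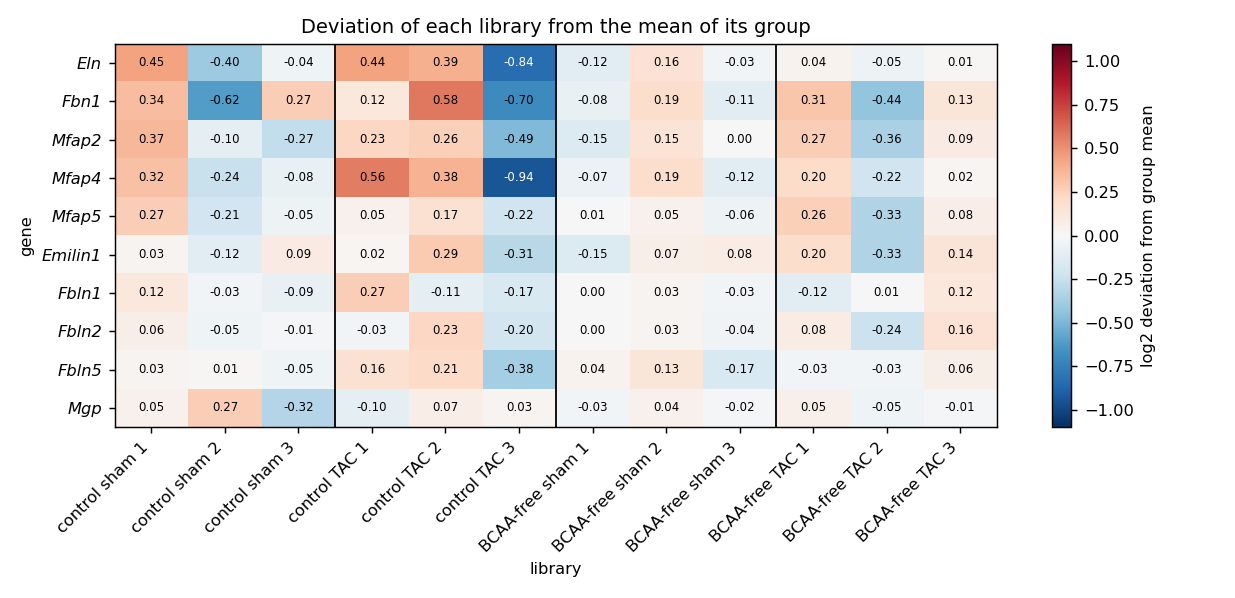
Log2 deviation of each library (columns) from the mean of its group for each gene (rows), from below (blue) to above (red) the mean, with the value in each cell. Control diet TAC 3 is at -0.94 for Mfap4 and -0.84 for Eln, and the Mgp row is near 0 outside control diet sham.

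Markers of other cell types and states also differed between groups and libraries. The 5 activated fibroblast markers (Postn, Cthrc1, Fap, Tnc and Comp), all measured, summed to 69.8 to 83.2 CPM in control diet sham, 567 to 1301 in control diet TAC, 37.7 to 53.8 in BCAA-free sham and 85.5 to 155 in BCAA-free TAC libraries. The lowest TAC libraries were again control diet TAC 3 and BCAA-free TAC 2. Of these 5 markers, 4 rose with TAC on the control diet and 3 on the BCAA-free diet, beside 9.17% and 3.31% of all genes. In TAC hearts 4 fell with the BCAA-free diet, beside 10.5% of all genes. The 5 general fibroblast markers (Pdgfra, Tcf21, Dpt, Ddr2 and Gsn) summed to 1132 to 1237, 908 to 1052, 1060 to 1126 and 1032 to 1102 CPM in the same order of groups, of which Gsn alone gave 669 to 1065. Single members of that list went both ways. With TAC on the control diet Tcf21 rose (0.45, limma, adjusted p = 0.0402) and Gsn fell (-0.61, adjusted p = 0.0226), and on the BCAA-free diet Dpt rose (0.26) and Pdgfra fell (-0.22). In TAC hearts Dpt was lower (-0.44, adjusted p = 0.0303) and Gsn higher (0.48, adjusted p = 0.0402) on the BCAA-free diet, and in sham hearts Ddr2 was lower (-0.35). In whole tissue, fewer cells of a type and less RNA per cell cannot be told apart, and the part of these lists in the results was not tested.

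Vascular smooth muscle cells also make elastic fibres. Their 6 markers summed to 360 to 442 CPM in control diet sham, 372 to 605 in control diet TAC, 301 to 330 in BCAA-free sham and 337 to 404 in BCAA-free TAC hearts. With TAC, 2 of 6 rose on the control diet (Tagln and Cnn1) and 3 on the BCAA-free diet, beside 9.17% and 3.31% of all genes. The 7 macrophage markers summed to 150 to 196, 308 to 372, 136 to 157 and 154 to 211 CPM in the same order. All 7 were lower on the BCAA-free diet in TAC hearts, beside 10.5% of all genes. The 6 valve and cartilage-like markers summed to 9.62 to 16.2, 13.3 to 17.6, 13.5 to 17.6 and 14.4 to 18.4 CPM in that order, with Cytl1 alone at 6.45 to 15.2. Below it, Sox9 (1.94, limma, adjusted p = 0.00487), Acan (2.75, adjusted p = 0.0202) and Col2a1 (2.49, adjusted p = 0.0142) rose with TAC on the control diet, and Acan (1.96) on the BCAA-free diet. In TAC hearts Sox9 (-1.68) and Col2a1 (-1.61) were lower and Cytl1 (0.84) higher on the BCAA-free diet. Sox9 was at 0.458 to 5.63 CPM, Acan at up to 2.12 and Col2a1 at up to 0.812. The 5 epicardial markers summed to 6.22 to 9.65, 11.6 to 12.1, 4.20 to 7.51 and 8.10 to 10.1 CPM, and in TAC hearts Upk3b (0.86) and Msln (0.95) were higher and Wt1 (-0.98) lower on the BCAA-free diet. For both lists the shares of all genes called with diet in TAC hearts were 6.23% higher and 10.5% lower. The 3 atrial markers measured in every library summed to 42.1 to 265 CPM in control diet sham, 167 to 424 in control diet TAC, 72.4 to 167 in BCAA-free sham and 227 to 265 in BCAA-free TAC.

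Control diet TAC 3, the library low in most of the 10 genes, also stood apart in marker lists of other cell types. Its 5 endothelial markers summed to 538 CPM, beside 838 and 820 in TAC 1 and 2 of its group, its 5 pericyte markers to 741 beside 1040 and 1068, and its 5 red blood cell markers to 483 beside 267 and 275. Over the other groups the endothelial sum was 515 to 783, the pericyte sum 947 to 1213 and the red blood cell sum 289 to 562 CPM. CPM are scaled to the library total and the tests use size factors, so the 2 can differ. By limma 0 of the 5 endothelial markers were called with TAC on the control diet, with a median log2 change of -0.16. Of 5 pericyte markers, Kcnj8 (-0.43) and Abcc9 (-1.06) fell with TAC on the control diet, beside 5.64% of all genes. With TAC on the BCAA-free diet Abcc9 fell (-0.61) and Cspg4 rose (0.39), beside 4.41% and 3.31%. In TAC hearts Kcnj8 and Abcc9 were higher (0.40 and 0.68) and Cspg4 lower (-0.54) on the BCAA-free diet, beside 6.23% and 10.5%. Of the 7 cardiomyocyte markers Myh6 (0.57), Tnnt2 (0.48), Ttn (0.47) and Myl2 (0.66) were higher on the BCAA-free diet in TAC hearts (limma, adjusted p = 0.0259 to 0.043). That stood beside 6.23% of all genes called higher there. Tnni3, Actc1 and Ryr2 were not called, and Actc1 had 8433 to 10573 CPM in control diet TAC and 6875 to 8512 in BCAA-free TAC libraries. With TAC on the BCAA-free diet Actc1 (0.54) and Myl2 (0.25) rose and Ryr2 (-0.37) fell, beside 3.31% and 4.41% of all genes. In sham hearts 1 of the 7 was lower on the BCAA-free diet, beside 2.27%. The 7 markers summed to 50913 to 57606 CPM in control diet TAC and 61087 to 66282 in BCAA-free TAC libraries. No measured marker of these lists was at 0, and their part in the results was not tested.

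Compared between genes as CPM per kilobase of exon, Mgp was the most abundant of the 10 in every group, at 65.7 in sham and 209 in TAC hearts on the control diet and 75.6 and 119 on the BCAA-free diet (means of 3 libraries). The length was that of all annotated exons of a gene joined, from 1187 bases for Mgp to 12128 for Fbn1. A gene whose transcripts use only part of them comes out too low. How far this changed the order was not tested. Mfap2 was the lowest in every group, at 1.45, 5.83, 1.04 and 1.62, with Fbln5 next at 3.68, 8.66, 3.38 and 4.05. Between them the order changed with TAC. Fbln1 was in place 2 in control diet sham, at 13.6, beside Fbln2 at 13.5, and in place 8 in control diet TAC, at 14.0. In normalized reads, which are scaled otherwise, its control diet TAC mean was the lowest of the 4 groups. Mfap4 went from place 5, at 6.94, to place 2, at 45.1, and Mfap5 from place 7, at 5.65, to place 3, at 32.2. On this scale Eln, Fbn1, Mfap4, Mfap5 and Emilin1 had control diet sham means between 5.58 and 7.18, close to each other beside spreads between libraries of up to 32.5% (coefficient of variation of normalized reads, Fbn1).

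**Figure D5:**
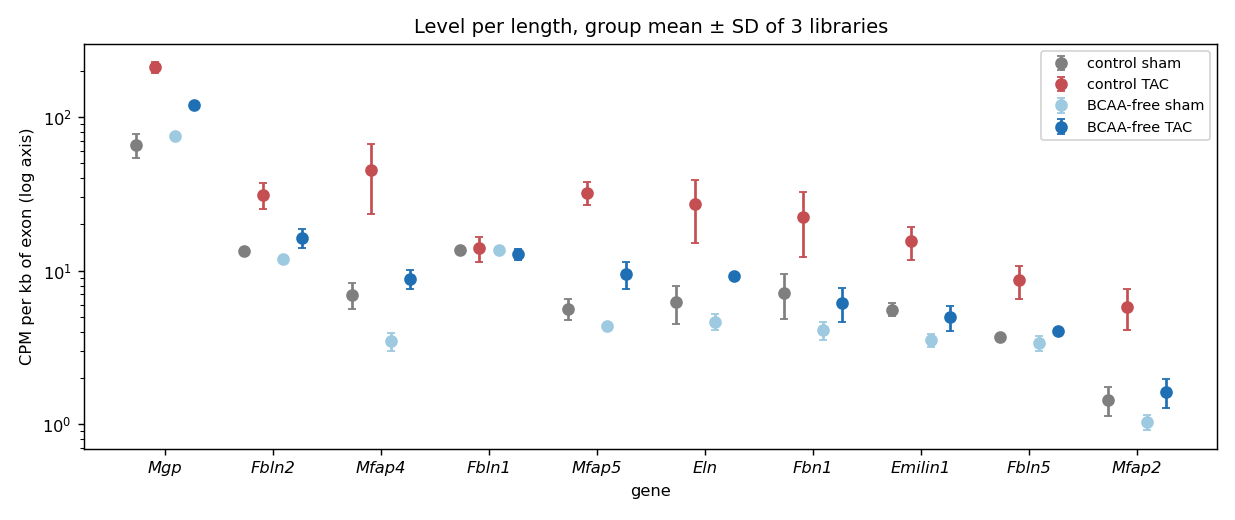
CPM per kilobase of exon (vertical axis, log scale) for each gene in each group, as the mean of 3 libraries with bars of 1 SD. Mgp stands highest and Mfap2 lowest in all 4 groups, and the 4 Fbln1 points lie together between 12.8 and 14.0.

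In the order of group means of normalized reads, 6 genes (Eln, Mfap2, Mfap4, Mfap5, Fbln2 and Fbln5) ran from BCAA-free sham through control diet sham and BCAA-free TAC to control diet TAC. For Mfap5 and Fbln2 all 3 neighbouring pairs were apart. For Eln and Fbln5 the sham groups overlapped, and for Mfap2 and Mfap4 control diet sham overlapped BCAA-free TAC. Fbn1 and Emilin1 had BCAA-free TAC below control diet sham, with overlap between those 2. Control diet TAC was on top and apart from the next group in all 9 genes other than Fbln1. Of all genes, 18.5% had every control diet TAC library above every control diet sham library. In 19.2% every BCAA-free TAC library lay below every control diet TAC library. The share of all genes with control diet TAC above all other groups was not counted.

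Likeness of pattern was measured as the root mean square difference of log2 normalized reads over the 12 libraries, each gene centred on its mean, among 14277 genes with a mean of at least 50. The 3 genes nearest to Eln were Col14a1, a fibril-associated collagen (0.23), Adamts2, a procollagen N-propeptidase (0.24), and Pamr1 (0.25). The nearest to Fbn1 was Col6a2, a collagen VI chain (0.17), to Mfap2 Nkd2 (0.14), to Mfap4 Col5a2, a collagen V chain (0.23), to Mfap5 Pamr1 (0.18) and to Emilin1 Mrc2, an endocytic collagen receptor (0.11). Fbln2 had Mmp19, a matrix metalloproteinase (0.09), Fbln5 had Serpine2, a serine protease inhibitor (0.08), Mgp had Fibin (0.16) and Fbln1 the zinc finger gene Zfp40 (0.08). Among themselves, Fbln2 and Fbln5 were nearest, at 0.14, and stood in places 28 and 26 of each other's lists. Eln was nearest to Mfap2, at 0.26 (place 9), and Fbln1 was far from all, its nearest being Fbln5 at 0.53 (place 13018). These distances share libraries and depth and were not tested.

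Other genes of elastic fibre assembly, turnover and signalling were taken from 9 lists of 49 genes, chosen with earlier results of these data known. With TAC on the control diet limma called 19 of 46 tested higher and 2 lower, beside 9.17% and 5.64% of all genes. On the BCAA-free diet 10 of 45 were higher and 0 lower, beside 3.31% and 4.41%, and 4 had an unadjusted p below 0.05 on the lower side. In sham hearts 7 of 45 were lower on the BCAA-free diet and 0 higher, beside 2.27% and 1.27%, with 4 at an unadjusted p below 0.05 on the higher side. The shares of all genes at an unadjusted p below 0.05 were not counted. In TAC hearts 18 of 46 were lower and 5 higher, beside 10.5% and 6.23%. The difference of the TAC responses passed for 4 of 45, with 3 lower and 1 higher, beside 0.503% and 0.171%. The counts by list below are of 3 to 7 genes each and stand beside the same shares.

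The crosslinking enzymes, which oxidise lysines of tropoelastin and collagen, had the most called of their number: 4 of 5 rose with TAC on each diet and 4 of 5 were lower on the BCAA-free diet in TAC hearts. Lox had 651, 556 and 512 normalized reads in control diet sham, 8117, 8692 and 5392 in control diet TAC, 502, 575 and 431 in BCAA-free sham and 1740, 984 and 1594 in BCAA-free TAC libraries. It rose by 3.66 ± 0.18 on the control diet (limma, adjusted p = 2.57e-05) and by 1.48 ± 0.23 on the BCAA-free diet (adjusted p = 0.0146), a difference of -2.18 ± 0.30 (adjusted p = 0.01). Loxl2 rose by 1.91 and 1.04 and Loxl3 by 1.98 and 0.71 on the control and BCAA-free diets.

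Of the fibrillin and LTBP relatives, which include the latent TGF-beta binding proteins of microfibrils, 2 of 5 rose with TAC on the control diet and 1 on the BCAA-free diet, and 3 were lower on the BCAA-free diet in TAC hearts. Ltbp2, a fibrillin-binding protein, had 485, 668 and 584 normalized reads in control diet sham and 7034, 8949 and 3980 in control diet TAC libraries. On the BCAA-free diet it had 386, 513 and 381 in sham and 1675, 846 and 1499 in TAC libraries. It rose by 3.45 ± 0.26 on the control diet (limma, adjusted p = 0.000227) and by 1.60 ± 0.29 on the BCAA-free diet (adjusted p = 0.0328), and the difference of -1.85 ± 0.42 did not pass (adjusted p = 0.0748). Ltbp3 rose by 0.92 on the control diet. Ltbp1 had -0.26 there (adjusted p = 0.114).

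Fibulin relatives moved in both directions. Efemp2, which codes for fibulin-4 and is needed for elastic fibre assembly, rose by 1.21 ± 0.11 with TAC on the control diet (limma, adjusted p = 0.000532) and by 0.42 ± 0.09 on the BCAA-free diet (adjusted p = 0.0149), with a difference of -0.79 ± 0.13 (adjusted p = 0.0221). Hmcn2, a hemicentin, went the other way on the control diet: 3100, 2138 and 2842 normalized reads in control diet sham, 1888, 2031 and 1474 in control diet TAC, 1917, 1659 and 1704 in BCAA-free sham and 3033, 2559 and 3015 in BCAA-free TAC libraries. Its TAC group was the lower on the control diet and the higher on the BCAA-free diet, without overlap in either. The log2 changes were -0.59 ± 0.16 (adjusted p = 0.0433) and 0.70 ± 0.08 (adjusted p = 0.000688), and the difference was 1.29 ± 0.20 (adjusted p = 0.0164). Hmcn1 fell by 0.62 with TAC on the control diet (adjusted p = 0.00673) and had -0.32 on the BCAA-free diet (adjusted p = 0.0844).

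Among elastin-degrading proteases 5 of 7 tested rose with TAC on the control diet and 1 on the BCAA-free diet, while 4 were lower and 1 higher on the BCAA-free diet in TAC hearts. Ctsk, which codes for cathepsin K, rose by 1.67 ± 0.16 on the control diet (limma, adjusted p = 0.000532) and had 0.50 ± 0.14 on the BCAA-free diet (adjusted p = 0.0544), a difference of -1.17 ± 0.23 (adjusted p = 0.0389). Mmp2, a gelatinase, rose by 1.29 and 0.63, and Ctss, which codes for the macrophage-rich cathepsin S, rose by 1.18 on the control diet and had 0.44 on the BCAA-free diet (adjusted p = 0.0974). Mmp2 and Ctss were also lower on the BCAA-free diet in sham hearts, by -0.78 and -0.44. Mmp7 and Elane were not tested in any comparison.

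Of the ADAMTS and ADAMTS-like microfibril proteins, 1 of 6 rose with TAC on each diet, Adamtsl2 on the control diet (1.50, limma adjusted p = 0.00476) and Adamts10 on the BCAA-free diet (0.38, adjusted p = 0.0149). Adamtsl2 was lower on the BCAA-free diet in sham (-0.90) and TAC hearts (-1.51). Adamts6 had -0.29 with TAC on the control diet (adjusted p = 0.492). Of the 4 EMILIN and multimerin relatives, limma called 0 with TAC on the control diet, and Emilin2 alone had an unadjusted p below 0.05 (-0.39, adjusted p = 0.0876). Emilin3 had 0.98 (adjusted p = 0.169), and Mmrn1 was higher by 0.54 on the BCAA-free diet in TAC hearts (adjusted p = 0.0424).

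Integrins that bind fibrillin or fibulin had 4 of 7 higher with TAC on the control diet, 1 on the BCAA-free diet and 4 lower on the BCAA-free diet in TAC hearts. Itgb3 rose by 1.13, Itga5 by 0.70 and Itgav by 0.42 on the control diet, and Itga5 rose by 0.46 on the BCAA-free diet (limma, adjusted p = 0.0174). In the elastin receptor complex 1 of 3 rose with TAC on the control diet, Ctsa, which codes for protective protein cathepsin A (0.39), and none was called in the other comparisons. For vitamin K-dependent carboxylation, the modification that Mgp needs, 1 of 4 tested rose on the control diet: Vkorc1, which recycles vitamin K, by 0.74 (adjusted p = 0.00497). It had 0.21 on the BCAA-free diet (adjusted p = 0.171) and was lower there in TAC hearts by -0.56 (adjusted p = 0.00947). Gas6, another vitamin K-dependent protein, had 0.21 (adjusted p = 0.163) and Vkorc1l1 0.04 (adjusted p = 0.808) with TAC on the control diet.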

How the data were processed

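Poly(A) RNA was sequenced from 12 heart samples, 3 in each of 4 groups taken from the labels. Tools listed in the submitters' processing notes are STAR 2.5.2b, Subread 1.5.2, Trimmomatic 0.36 and DESeq2 (no version), with GRCm38 and mm10 as builds. The role of each tool, the annotation release and strandedness were not given in the sources used here. Per the file headers, each of the 4 deposited tables holds, for 1 pair of groups, a signal per library (read counts that the authors normalized), the authors' log2 fold change, and the authors' p-values with adjusted p-values. The signal values proved to be reads divided by a size factor set per library and table, since 100% were whole multiples of a step (tolerance 0.0001 read). The step was estimated separately for each library column of each table. Recovered reads agreed in all 212169 values held by both tables of a library. Tables list genes with at least 61 reads. At most 28 rows of a table had no gene name, and no row was left out of the tests for lacking one.

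The design foresaw edgeR for raw counts. Since the unit was normalized, limma-trend (limma 3.58.1, R 4.3.3) with robust empirical Bayes was run on log2(value + 1) for genes with a mean of at least 10, called at a Benjamini-Hochberg adjusted p below 0.05. The script was tested on simulated data. Each pair was fitted alone, and the difference of TAC responses over 12 libraries. All 10 genes were named, and up to 3 per list with the smallest p for TAC on the control diet. The members and lists were chosen with earlier results of these data known. Alternatives were edgeR 4.0.16 with TMM and DESeq2 1.42.0 on recovered reads, pseudocounts of 0.5 and 5, no filter, a replicate block, all 12 libraries scaled jointly in 1 fit, and leaving out libraries. Positions are from GRCm38 (GENCODE M21).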

Additional observations from a re-analysis of the deposited data

Results flagged for a closer look

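In the test of the difference itself, 2 of the 10 genes differed between the diets in their response to TAC, beside 0.503% of all genes called lower. The log2 rise of Mfap5 was smaller on the BCAA-free diet by -1.21 (limma, adjusted p = 0.0242), with 7932 to 10330 normalized reads in control diet TAC and 2498 to 3769 in BCAA-free TAC libraries. For Mgp the difference was -0.83 (adjusted p = 0.0366), with 18597 to 21007 and 12895 to 13812. In both genes all 3 BCAA-free TAC libraries lay below all 3 control diet TAC libraries, beside 19.2% of all genes. Neither call was stable to the choice of libraries: leaving out 1 library at a time, the Mfap5 call was kept in 5 of 12 fits and the Mgp call in 4, and with the replicate number as a block Mgp did not pass (adjusted p = 0.0662). Where leaving out a library lost either call, 16 to 69 of all genes were called. With the block 50 were called, beside 118 in the main fit.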

How the results depend on the processing

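With each library left out in turn, members called ranged from 7 to 9 for TAC on the control diet, 4 to 8 for TAC on the BCAA-free diet (8 without BCAA-free TAC 2), 1 to 4 for diet in sham hearts (4 without control diet sham 2), 7 to 9 for diet in TAC hearts and 0 to 8 for the difference of TAC responses (8 without control diet TAC 3). In the fit of all 12 libraries scaled jointly, 2 members were called for TAC on the BCAA-free diet and 0 for diet in sham hearts (5 at an unadjusted p below 0.05 in the fit of 6 libraries; edgeR called 2 and DESeq2 3). For the difference of TAC responses, DESeq2 called 6 and leaving out control diet sham 2 and control diet TAC 3 together, chosen after seeing the data, gave 8. Over all genes the latter called 1347, and the fit without control diet TAC 3 alone called 1755. Fbln1 in sham hearts ran from -0.0152 (without control diet sham 3) to 0.0846. Pseudocounts of 0.5 and 5 and no filter changed none of these 5 counts. Genes called among all tested ranged, with a library left out, from 1354 to 4678, 546 to 1257, 50 to 1071, 1195 to 6025 and 16 to 1755 in the order above (2710, 1360, 633, 3025 and 118 with all libraries). In the fit of all 12 they were 4404, 302, 149 and 4481 for the 4 pairs, and DESeq2 called 1530 for diet in sham hearts and 809 for the difference. No scaling moved the median of all genes by 0.1.

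With the replicate number as a block, 8, 5, 2, 9 and 1 members were called, Fbn1 (TAC on the control diet, adjusted p = 0.0624), Fbln5 (TAC on the BCAA-free diet, 0.104) and Mgp (difference, 0.0662) losing their calls, and 623, 276 and 50 of all genes for TAC on the BCAA-free diet, diet in sham hearts and the difference. Same-numbered libraries did not deviate together: correlations over genes were -0.17 to 0.03, with 0 of the pairs above 0.1. In no comparison did every library correlate best with its own number. The labels do not say whether same-numbered libraries were handled together, and this was not tested. Mfap2 had the fewest reads, 92 to 873 per library, and whether counting error limited its calls was not tested.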
